A study of Saccharomyces cerevisiae with 56 samples.

Results

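The genes followed here are 10 of the 5927 genes used from the deposited files, namely the helicase genes MCM2, MCM3, MCM4, MCM5, MCM6 and MCM7, the sliding clamp gene POL30, and the ribonucleotide reductase genes RNR1, RNR2 and RNR3. They were chosen by name for their roles in DNA replication and dNTP synthesis, not by a rule on measured values. Earlier results of these data were known when the choice was made. The study began with translation efficiency (TE) over the metabolic cycle of budding yeast, and went on to compare starved and replete cells with and without CHX (cycloheximide, an inhibitor of translation elongation). It measured 28 samples by ribosome profiling, which sequences the mRNA fragments that ribosomes protect (footprints), and by RNA-seq of rRNA-depleted total RNA, giving 56 libraries.

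Of these samples, 16 are time points of a single yeast metabolic cycle (YMC) in a chemostat of the prototrophic MATa strain CEN.PK, all with CHX. The rest are pairs of starved and replete samples, where the starved part of a culture was held without amino acids for 20 min and the replete part was not. Pairs with CHX came from yJW1864 (labelled dot6 tod6 stb3), BY4741, yJW1861, yJW1862 and yJW1863, and a pair without CHX came from BY4741, a MATa laboratory strain. By the strain list of the paper, these 5 strains share the his3, leu2, met15 and ura3 deletions. By that list yJW1864 carries LEU2 in place of DOT6, URA3 in place of TOD6 and kanMX6 in place of STB3. yJW1861 and yJW1862 carry NOP2 of Kluyveromyces lactis at the NOP2 locus and a second NOP2 copy under the CCW12 or the NOP2 promoter, and yJW1863 carries EGFP under the NOP2 promoter. Each condition of a strain is 1 sample, so BY4741, yJW1861, yJW1862 and yJW1863, whose repressors are intact, served as the 4 replicates with CHX.

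The Mcm2 to Mcm7 proteins form the ring-shaped helicase that is loaded on replication origins in G1 and unwinds DNA in S phase. Pol30 is yeast PCNA, the ring that holds DNA polymerases on their template. Ribonucleotide reductase makes dNTPs from ribonucleotides, with Rnr1 as the main large subunit, Rnr2 and Rnr4 as the small subunit, and Rnr3 as a second large subunit that is known for its induction by DNA damage. In budding yeast many replication genes, POL30 and RNR1 among them, are transcribed around the G1/S transition by the factor MBF (Mbp1 and Swi6), while MCM transcripts are known to peak between late mitosis and G1. In bulk samples such as these, a smaller share of cells in S phase and less RNA per cell cannot be told apart.

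All 10 genes were matched by systematic name, and their positions are those of the RefSeq annotation of assembly R64, the sacCer3 build that the labels name. MCM2 (YBL023C) spans chrII:174920-177526, MCM7 (YBR202W) chrII:625772-628309 and POL30 (YBR088C) chrII:424990-425766. MCM3 (YEL032W) spans chrV:86937-89852 and RNR1 (YER070W) chrV:298950-301616. MCM4 (YPR019W) lies at chrXVI:596750-599551, MCM5 (YLR274W) at chrXII:691555-693882 and MCM6 (YGL201C) at chrVII:117854-120907. RNR2 (YJL026W) lies at chrX:392404-393603 and RNR3 (YIL066C) at chrIX:238099-240708. Values refer to the coding sequence. Non-unique positions had been masked, which removed a further 188 bases in each of the paralogues RNR1 and RNR3, so reads shared by them were not counted for either.

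Libraries held between 3632217 and 27429226 footprints and between 9648356 and 23693465 mRNA reads, summed over all deposited genes, dubious ORFs among them. With CHX, the starved footprint libraries (3812458 to 8295127) were all shallower than the replete ones (9359228 to 20036606), and the part of this in the results was not tested. The mRNA libraries labelled yJW1864 held 4 to 9 DOT6 and 0 to 1 TOD6 mRNA counts, against 2312 to 4878 and 58 to 1025 in BY4741 and the reporter strains. Their STB3 mRNA counts were 921 to 1062, within the 736 to 1624 of those strains, which goes against the label. URA3 mRNA (711 to 1052 counts) was present in yJW1864, but LEU2 had 0 to 1 mRNA counts there, which goes against the listed LEU2 replacement. LEU2 footprints in yJW1864 numbered 895 in the starved and 17 in the replete library, beside 0 to 28 in BY4741. This mismatch with the mRNA touches the footprint and TE values of yJW1864. MET17, the gene deleted as met15, had 148 footprints in replete and 255 in starved BY4741 with CHX, against at least 24295 in CEN.PK. In BY4741 without CHX it had 0 in either state. These reads thus lie on 1 side of the comparison with and without CHX, and their part in it was not tested. HIS3 had 444 to 3590 mRNA counts in BY4741, 508 to 4298 in the reporter strains, 756 to 3215 in yJW1864 and 781 to 3322 in CEN.PK. The strain list marks the his3 allele differently from the leu2, met15 and ura3 alleles. It does not say how much of HIS3 is removed, so these counts do not go against it.

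Over the YMC the 10 genes fell into 3 timing groups. All 6 MCM genes had their highest mRNA level at time points 11 or 12, at the end of the oxidative phase (OX) and the start of reductive building (RB). POL30 and RNR1 followed at time point 13, and RNR2 and RNR3 were highest earlier, at time points 7 and 8 in reductive charging (RC) and at its border with OX. Time points 11 to 14 held the highest mRNA value of 27.2% of the 4838 genes with enough reads, against 8 of these 10 genes. Time points 7 and 8 held that of 8.23% of them, against RNR2 and RNR3 here. The timing groups and these windows were set after the values were seen, so the contrast in shares was partly fixed by that choice. Each time point is 1 sample, so these values are a description with no test. Levels are given in the deposited RPKM, reads scaled to the length of the coding sequence and to the total reads of the library.

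MCM3 mRNA was lowest at 23.8 RPKM at time point 3 (RB-RC), had a median of 69.0 RPKM and was highest at 121.9 RPKM at time point 11, a range of 5.12-fold with a 95% counting interval of 4.88 to 5.37. MCM5 mRNA lay between 15.4 RPKM at time point 2 and 66.8 RPKM at time point 12, with a median of 44.6 RPKM. The other helicase mRNAs moved less, with a range of 3.62-fold for MCM7, 3.52-fold for MCM2, 3.23-fold for MCM6 and 1.78-fold for MCM4. MCM4 was the flattest of the 6, between 36.0 RPKM at time point 1 and 64.1 RPKM at time point 12. Every MCM mRNA also had a first, smaller maximum in RC at time point 4 or 5. At that point MCM7 reached 96.7 RPKM, close to its 104.3 RPKM at time point 12, with 60.9 RPKM between them at time point 10. Across the 16 samples the log2 mRNA levels of the 6 genes correlated with a Pearson r between 0.68 and 0.98 over their 15 pairs.

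POL30 and RNR1 were the most variable of the 10 in mRNA. POL30 mRNA was 16.4 RPKM at time point 4 and 224.6 RPKM at time point 13, with a median of 36.0 RPKM. RNR1 mRNA was 29.9 RPKM at time point 4 and 499.0 RPKM at time point 13, with a median of 61.5 RPKM. From time point 2 (0.32 h) to time point 10 (3.45 h) neither exceeded 61.5 RPKM, and RNR1 was above that from time point 11 on and POL30 from time point 12 on. Their ranges were 13.7-fold (counting interval 12.4 to 15.2) and 16.7-fold (16.0 to 17.3), wider than in 95.2% and 96.4% of all genes. Their mRNA profiles correlated with each other at r = 0.97 over the 16 samples, but with the MCM genes only at 0.24 to 0.56.

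**Figure D1:**
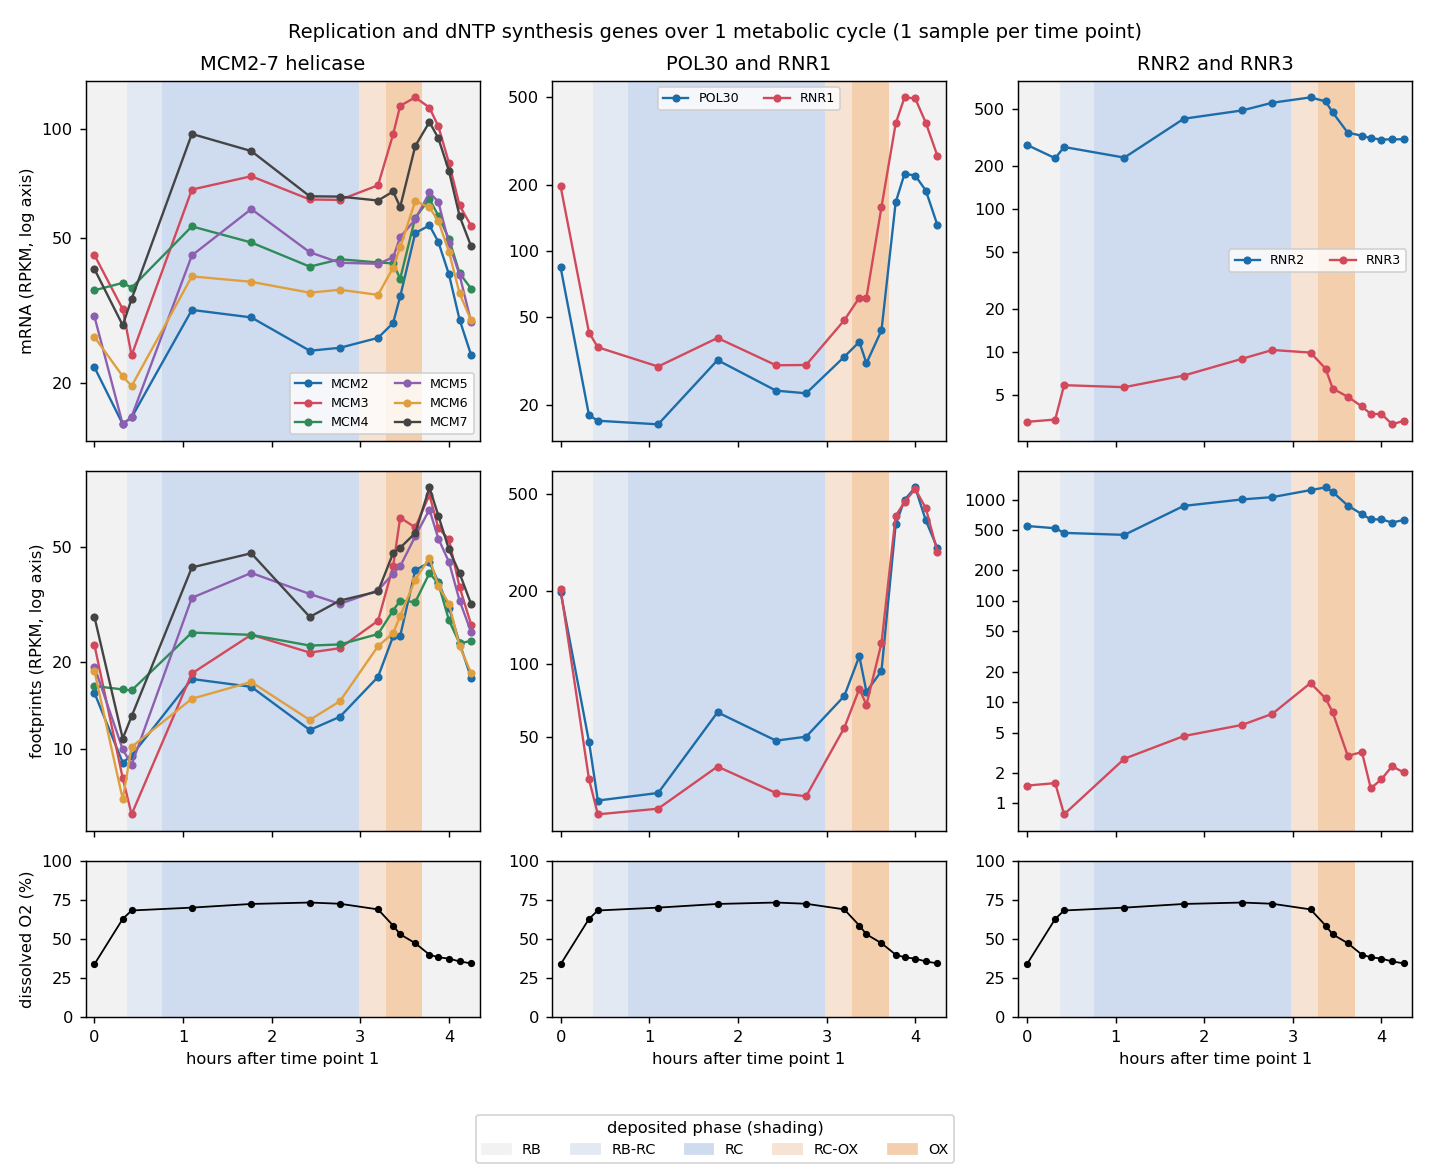
mRNA (top row) and footprint levels (middle row) in RPKM on log axes, and dissolved oxygen in percent (bottom row), against hours after time point 1; each point is 1 sample and shading gives the deposited phase. The MCM genes peak at time points 11 or 12, POL30 and RNR1 at 13 or 14, and RNR2 and RNR3 at 7 to 9.

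RNR2, the small subunit gene, was the most abundant of the 10 in mRNA at 12 of the 16 time points, with RNR1 above it at time points 12 to 15. Its mRNA was 225.3 RPKM at time point 2, had a median of 317.1 RPKM and reached 598.6 RPKM at time point 8, a range of 2.66-fold. RNR3 mRNA was the scarcest in every sample, between 3.14 RPKM at time point 15 and 10.4 RPKM at time point 7. RNR1, the other large subunit gene, was near its lowest level at the time points where RNR2 and RNR3 were highest, and the correlations of POL30 and RNR1 with RNR2 and RNR3 were all negative, from -0.75 to -0.19. The ratio of RNR1 to RNR2 mRNA therefore spanned 0.055 to 1.62 over the cycle, and that of their footprints 0.027 to 0.83.

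Footprints kept the same order of peaks and moved further. All 6 MCM genes had their highest footprint level at time point 12, from 40.6 RPKM for MCM4 to 80.4 RPKM for MCM7. MCM3 footprints were 5.92 RPKM at time point 3, had a median of 27.3 RPKM and were highest at 75.8 RPKM, a range of 12.8-fold. POL30 footprints lay between 27.4 RPKM at time point 3 and 534.6 RPKM at time point 14, and RNR1 footprints between 24.0 and 527.1 RPKM at the same time points. The ranges of these 2 genes were 19.5-fold and 21.9-fold. RNR2 footprints reached 1318 RPKM at time point 9. RNR3 footprints ranged from 0.78 RPKM at time point 3, where 67 footprints were counted, to 15.4 RPKM at time point 8.

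A range of at least 4-fold was found in mRNA for 4 of the 10 genes, beside 29.7% of all genes, and in footprints for 8 of 10, beside 49.2%. In TE, footprint RPKM over mRNA RPKM, 1 of 10 reached it, RNR3, beside 12.6%. The median ranges of the 10 genes were 3.57-fold in mRNA, 7.54-fold in footprints and 1.97-fold in TE, and those of all genes 2.72-fold, 3.93-fold and 2.18-fold. Single samples carried part of this: with the second highest over the second lowest value, 2, 7 and 0 of the 10 genes reached 4-fold, beside 19.1%, 32.7% and 5.62% of all genes. The footprint ranges of MCM3, MCM6 and RNR3 were then 8.00-fold, 3.80-fold and 7.74-fold, against 12.8-fold, 6.86-fold and 19.8-fold.

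The TE of the 6 MCM genes lay between 0.248 and 0.751 from time point 2 to time point 7, and between 0.444 and 1.01 from time point 9 to time point 16. The median TE of all genes was also lower in RC (0.666 at time point 6) than in OX (1.03 at time point 10). The paper reports that CHX can distort mRNA levels and TE when nutrients are limiting. Every YMC sample had CHX, so the part of the drug in these TE values was not tested. MCM3 had the lowest TE of the 6 subunits in 23 of the 28 samples of the series. Its TE was 0.248 at time point 2 and 0.663 at time point 12, and its range of 2.68-fold was still 2.33-fold after division by the median TE of each sample. MCM2 TE had a range of 1.77-fold before and 1.25-fold after that division. POL30 and RNR2 had a high TE throughout, between 1.61 and 2.78 for POL30 and between 1.74 and 2.57 for RNR2. RNR1 TE lay between 0.656 and 1.28. RNR3 TE was 0.132 at time point 3 and 1.55 at time point 8, a range of 11.7-fold with a counting interval of 8.88 to 15.5, and 3.75-fold between the second values. It was at its highest in the samples from time point 8 to 10.

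**Figure D2:**
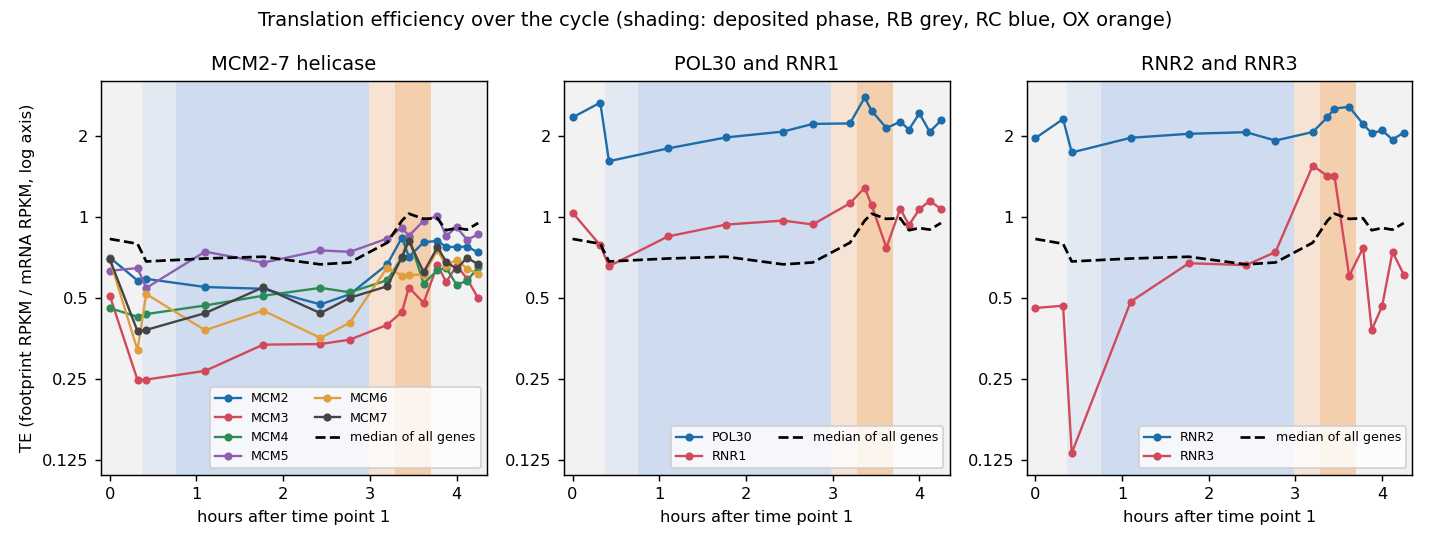
TE (footprint RPKM over mRNA RPKM, log axis) of each gene against hours after time point 1, with the median TE of all genes as a dashed line and the phase as shading. The MCM genes lie mostly under the median, POL30 and RNR2 lie above it throughout, and RNR3 has its lowest value, 0.132, at time point 3 and its highest, 1.55, at time point 8.

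By the rule that names the 5 other genes most like the members, the mean of their 10 standardized mRNA profiles was closest to GPA1, the alpha subunit of the G protein of the mating pathway, with r = 0.93 over the 16 samples among 4880 genes. MSA1 (0.90) and MSA2 (0.86), known for their association with the G1/S transcription factors, HLJ1 (0.87), a co-chaperone of the endoplasmic reticulum, and TRI1 (0.87) followed. The genes closest to the mean of POL30 and RNR1, a pairing made after their values were seen, were POL1, SEN34, CDC45, PRI2 and YIF1, with r between 0.98 and 0.99. POL1 and PRI2 encode subunits of DNA polymerase alpha-primase, and Cdc45 is a partner of the helicase. Among other replication genes, the mRNA peak lay at time points 11 to 14 for 9 of 11 polymerase, 7 of 7 clamp loader, 10 of 12 fork and 9 of 12 helicase activation genes, but for 1 of 8 origin licensing genes, beside 27.2% of all genes.

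The next comparison asked how these genes changed on amino acid starvation. In the 4 strains with CHX, starvation left RNR1 mRNA 5.62-fold and POL30 mRNA 3.29-fold lower, with footprints lower to nearly the same extent, while the helicase genes changed by less than 2-fold. In mRNA, 6 of the 10 genes were lower and 0 higher in starved than in replete cells at an adjusted p under 0.05 (edgeR quasi-likelihood test with strain as block and Benjamini-Hochberg adjustment over 5064 genes), beside 38.1% of all genes lower and 42.1% higher. In footprints 8 of 10 were lower and 0 higher, beside 36.1% lower and 39.8% higher. In TE 3 of 10 were lower and 0 higher, beside 25.3% lower and 15.8% higher. Unadjusted p under 0.05 and DESeq2 gave the same counts of 6, 8 and 3. The strains are the replicates and nothing says that any strain was grown more than once, so the error is that between strains.

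RNR1 mRNA was 39.3, 43.7, 50.2 and 42.5 RPKM in starved BY4741, yJW1861, yJW1862 and yJW1863, against 243.7, 199.2, 201.3 and 227.9 RPKM in the same strains replete. The groups did not overlap, and every strain was lower when starved. The log2 change was -2.49 (SE 0.10, edgeR adjusted p = 1.17e-08). Footprints averaged 52.9 ± 10.2 RPKM in starved and 221.9 ± 23.3 RPKM in replete cells (SD, n = 4 each), a log2 change of -2.38. RNR1 TE was 1.20 ± 0.14 in starved and 1.03 ± 0.19 in replete cells, and its fitted change of 0.08 had a 95% interval of -0.27 to 0.43.

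POL30 mRNA was 64.8, 57.6, 61.1 and 62.7 RPKM in starved BY4741, yJW1861, yJW1862 and yJW1863, against 195.1, 179.2, 160.4 and 182.5 RPKM in replete cells. Again no starved sample reached a replete one, and the log2 change was -1.72 (SE 0.06, edgeR adjusted p = 4.44e-09). Footprints were 55.2, 94.0, 101.0 and 85.1 RPKM in starved cells, against 145.1, 235.8, 221.6 and 227.9 RPKM in replete cells, with BY4741 the lowest in both groups. The log2 change in footprints was -1.62 (SE 0.09), and that in TE was 0.07 with a 95% interval of -0.16 to 0.31.

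**Figure D3:**
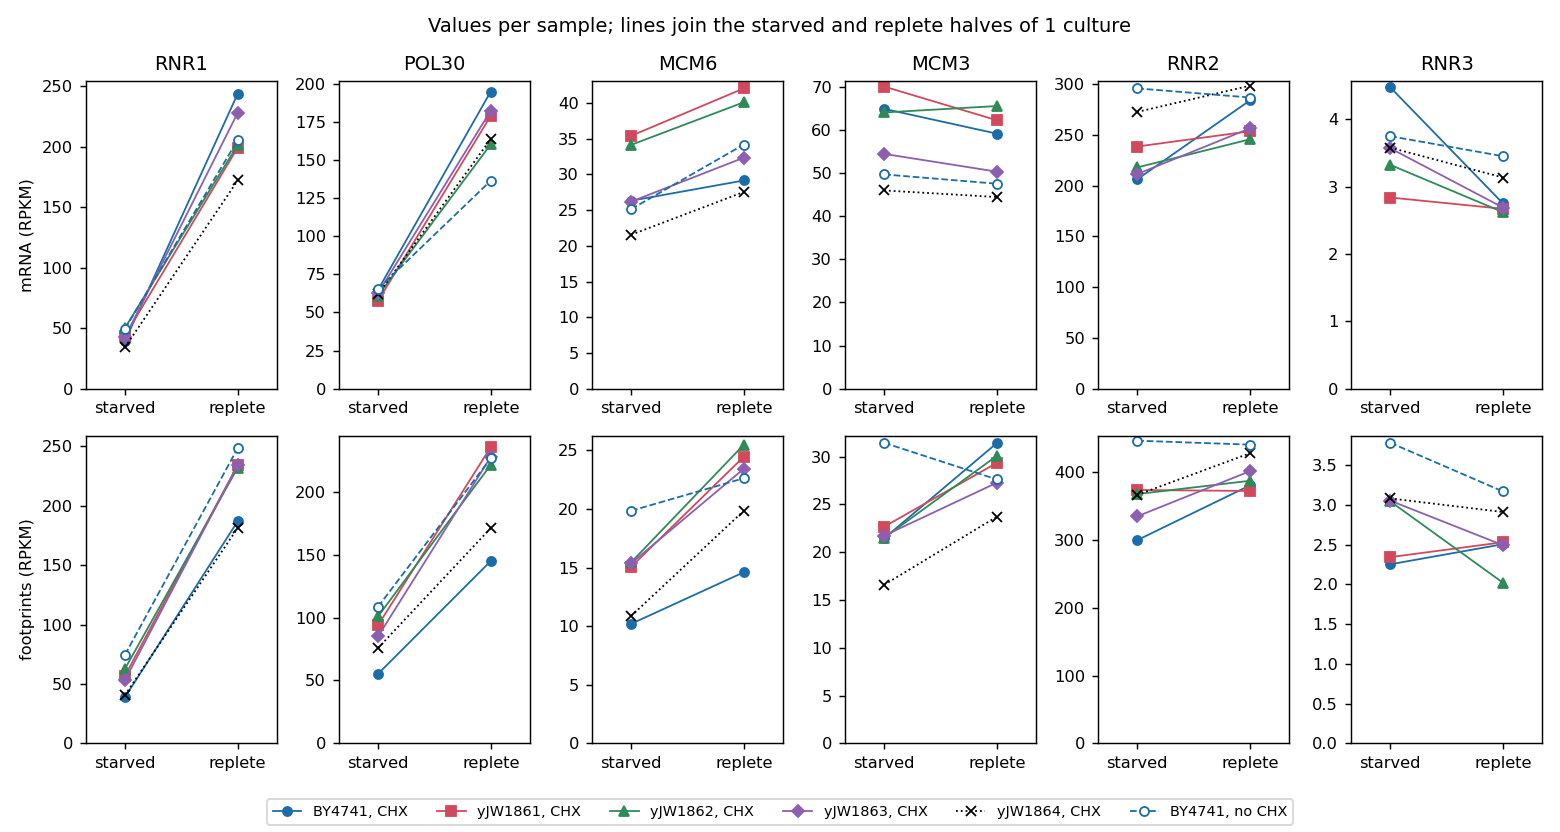
mRNA (top) and footprint (bottom) RPKM of 6 genes in each starved sample (left) and the replete sample of the same culture (right), joined by a line; each marker is 1 sample, and no bars are drawn. RNR1 and POL30 are lower in starved cells in all 6 pairs, while MCM3 is lower in starved cells in footprints but not in mRNA in 4 of the 5 pairs with CHX.

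Among the helicase genes, MCM6 and MCM3 had the largest changes in footprints and TE, and MCM6 and MCM2 in mRNA. MCM6 mRNA was 26.3, 35.4, 34.1 and 26.2 RPKM in starved BY4741, yJW1861, yJW1862 and yJW1863, against 29.1, 42.0, 40.1 and 32.3 RPKM in replete cells. Its footprints were 10.2, 15.1, 15.4 and 15.4 RPKM in starved cells, against 14.6, 24.5, 25.5 and 23.4 RPKM in replete cells. In footprints the groups overlapped only through replete BY4741, and each strain was lower when starved in both measures. The log2 changes were -0.41 in mRNA, -0.94 in footprints (edgeR adjusted p = 4.01e-06) and -0.56 in TE (SE 0.09, adjusted p = 3.88e-04).

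MCM3 differed from MCM6 in that its mRNA did not pass the test. MCM3 mRNA averaged 63.4 ± 6.5 RPKM in starved and 59.3 ± 6.5 RPKM in replete cells (SD, n = 4 each), and its log2 change of -0.08 had a 95% interval of -0.20 to 0.04. MCM3 footprints were 21.4, 22.7, 21.5 and 21.7 RPKM in starved BY4741, yJW1861, yJW1862 and yJW1863, against 31.4, 29.3, 30.1 and 27.3 RPKM in replete cells, with no overlap. MCM3 TE was 0.347 ± 0.035 in starved and 0.501 ± 0.042 in replete cells, a log2 change of -0.68 (SE 0.10, edgeR adjusted p = 1.87e-04).

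The other helicase genes changed little. MCM2 was lower in mRNA (-0.32) and footprints (-0.44), and MCM7 in mRNA (-0.26) and footprints (-0.27). MCM4 was lower in footprints (-0.32) and TE (-0.29, adjusted p = 0.028), and its mRNA change was -0.06 with a 95% interval of -0.16 to 0.05. MCM5 passed no test: the difference in mRNA was 0.00 on the log2 scale (95% interval -0.12 to 0.12), that in footprints -0.09 (-0.29 to 0.10) and that in TE -0.12 (-0.33 to 0.08). The footprint calls of MCM4 (adjusted p = 0.056), MCM7 (0.070) and RNR2 (0.077) were lost when yJW1863 was left out, which left 5 of 8. MCM7 footprints also failed without yJW1861 (0.073) or yJW1862 (0.071), and MCM4 TE without BY4741 (0.071), yJW1862 (0.14) or yJW1863 (0.085) and with RLE factors (0.051).

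RNR2 mRNA was 206.3, 238.6, 218.0 and 211.4 RPKM in starved BY4741, yJW1861, yJW1862 and yJW1863, against 284.1, 253.7, 245.8 and 256.6 RPKM in replete cells. The groups did not overlap, and the log2 change was -0.43 (SE 0.07, edgeR adjusted p = 1.93e-04), with -0.47 in footprints. RNR3 mRNA was 4.48, 2.84, 3.32 and 3.57 RPKM in starved cells, against 2.75, 2.67, 2.62 and 2.69 RPKM in replete cells. No replete sample reached a starved one, but these values rest on 99 to 197 reads, and the change of 0.23 relative to all genes (95% interval -0.05 to 0.50) did not pass the test (adjusted p = 0.12). Without yJW1861 it was 0.31 and passed (adjusted p = 0.045), so the count in mRNA was then 7. RNR3 footprints had a change of -0.14 (-0.54 to 0.26).

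**Figure D4:**
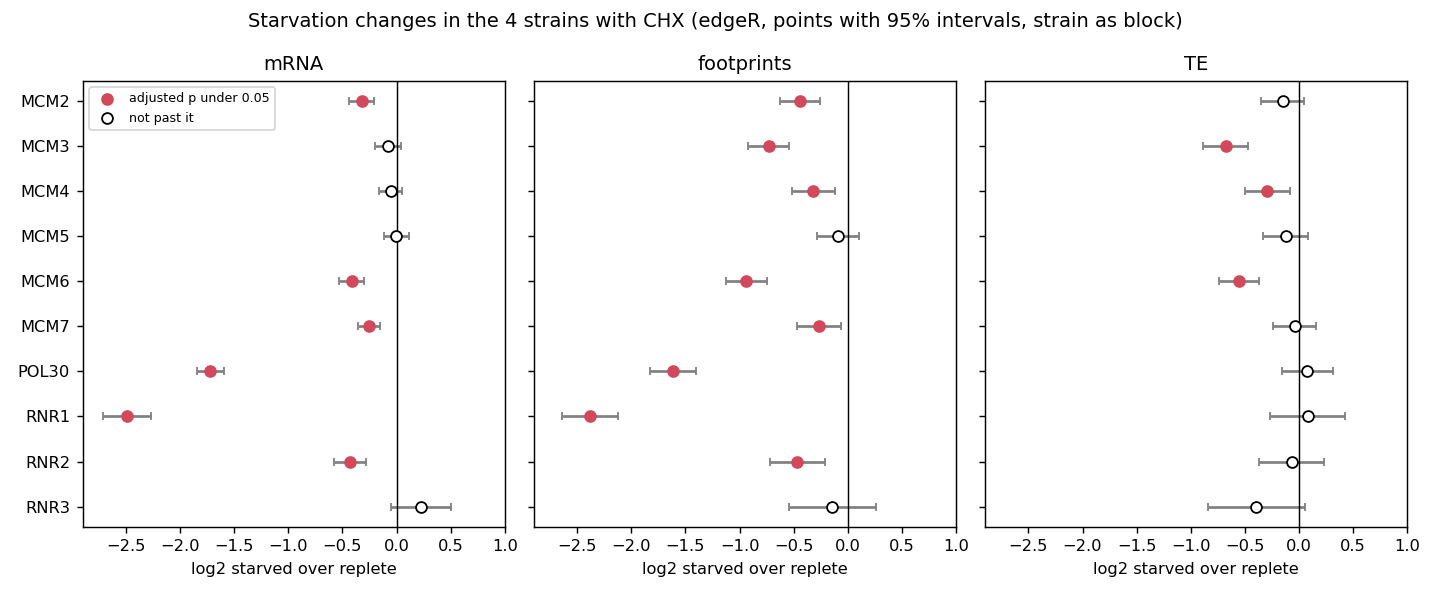
Fitted log2 change of starved over replete in mRNA, footprints and TE for the 10 genes in the 4 strains with CHX (points; bars are 95% intervals of edgeR), filled where the adjusted p was under 0.05. RNR1 and POL30 stand at -2.49 and -1.72 in mRNA, and MCM3, MCM4 and MCM6 are the genes called in TE.

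These changes are relative to the bulk of genes. Before subtraction, the median log2 change of all genes in RPKM was 0.19 to 0.23 in mRNA and 0.27 to 0.39 in footprints among the 4 pairs. Without it, MCM4 and MCM7 footprints were lower in 2 of the 4 starved samples and RNR2 footprints in 3 of 4, while RNR1, POL30, MCM2 and MCM6 in mRNA and footprints and MCM3 in footprints were lower in 4 of 4. The block mattered for TE: without the replicate block the adjusted p was 0.066 for MCM3 and 0.082 for MCM4, and 1 of the 10 genes, MCM6, was called in TE, with 6 called in footprints, where MCM7 and RNR2 were lost.

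Around the 10 genes, other replication genes were read from fixed lists, in the same fit. Of all genes in that fit, 38.1% were lower and 42.1% higher in mRNA. Of 11 subunits of the replicative polymerases, 8 were lower and 0 higher in mRNA in starved cells, led by POL1 (-1.47), DPB4 (-1.09) and POL12 (-1.08), and of 7 clamp loader genes, whose products load Pol30 on DNA or, for Elg1, unload it, 6 were lower, led by RFC5 (-0.77), ELG1 (-0.61) and CTF18 (-0.58). Of 12 fork and Okazaki fragment genes 11 were lower and 1, DNA2 (0.30), higher, led by RAD27 (-1.10), a flap endonuclease, CDC9 (-1.06), the DNA ligase, and TOP2 (-0.83). The median log2 changes in mRNA were -0.85, -0.57 and -0.53 for these lists, and 0.03 for all genes. The 8 origin licensing genes, which load the helicase, were mixed, with 3 lower and 3 higher, ORC1 at -0.67, TAH11 at 0.61 and CDC6 at 0.42. Of 12 helicase activation genes 6 were lower and 2 higher, with CDC45 at -1.13, PSF2 at 1.21 and MCM10 at -0.49.

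In footprints, 8 polymerase, 6 clamp loader and 8 fork genes were lower and 0 higher, and POL1 (-1.76), RFC2 (-1.16) and TOP2 (-1.35) changed most. In TE, 4, 3 and 3 genes of these lists were lower and 0 higher, with RFC2 at -0.80. Of the 8 licensing genes, 3 were higher and 2 lower in footprints and 1, ORC5 (0.51), was higher in TE. Of the 12 activation genes, 4 were higher and 2 lower in footprints and 3 higher and 1 lower in TE, and SLD7 had the largest changes, 1.74 and 1.23. Over all genes, 36.1% were lower and 39.8% higher in footprints, and 25.3% lower and 15.8% higher in TE.

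Of 15 tested genes of dNTP synthesis and its regulators, 7 were lower and 5 higher in mRNA and likewise 7 and 5 in footprints, with 1 lower and 3 higher in TE. The mRNA and footprint counts lie near the shares over all genes, 38.1% lower and 42.1% higher in mRNA and 36.1% and 39.8% in footprints. In TE the shares over all genes were 25.3% lower and 15.8% higher. The 3 largest mRNA changes were those of CDC21 (-1.33), which encodes thymidylate synthase, DCD1 (-0.86), dCMP deaminase, and RNR4 (-0.77), the partner of Rnr2. In TE, DFR1, dihydrofolate reductase, was lower (-0.68), and SML1 (0.51) and DIF1 (0.51), which encode small protein regulators of the reductase, were among the 3 that were higher.

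The G1/S and S cyclin genes were all lower in mRNA, 4 of 4, with CLB6 at -1.81, CLN2 at -1.32 and CLB5 at -0.93, and 3 of 4 were lower in footprints. In TE 2 of them were higher, CLB6 (0.72) and CLB5 (0.65), and CLN1 was lower (-0.54). Of 6 genes for G1/S transcription factors, edgeR called 0 in mRNA, with 0 at an unadjusted p under 0.05 and 0 by DESeq2. In footprints 3 of these 6 were higher, WHI5 (0.57), MBP1 (0.57) and SWI4 (0.44), and SWI6 (-0.29) was lower, and in TE WHI5 (0.57) and MBP1 (0.48) were higher. Of 6 tested core histone genes, which lie in near-identical pairs whose shared positions were masked, 1, HHT2 (0.40), was higher and 3 lower in mRNA, 4 were higher in footprints and 4 in TE. HTB1, HHT1 and HTA1 had the largest TE changes, 0.87, 0.78 and 0.66. Over all genes, 38.1% were lower and 42.1% higher in mRNA. The shares were 36.1% and 39.8% in footprints, and 25.3% and 15.8% in TE. Against these, counts in lists of 4 or 6 genes say little.

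The samples without CHX asked whether these responses needed the drug. In BY4741 without CHX, RNR1 mRNA was 49.3 RPKM in the starved and 205.4 RPKM in the replete sample, and POL30 mRNA 65.5 and 136.5 RPKM. RNR1 footprints were 74.5 RPKM starved and 248.5 RPKM replete. After subtraction of the median of all genes, the log2 changes of RNR1 were -2.34 in mRNA and -2.26 in footprints without CHX, and -2.82 and -2.61 with CHX in BY4741. Those of POL30 were -1.34 and -1.59 without CHX, and -1.77 and -1.74 with CHX. Both genes were thus far lower in starved cells in either kind of sample.

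MCM3 and MCM6 had a lower TE in starved cells with CHX but not without it in RPKM. Without CHX, MCM3 TE was 0.632 in the starved and 0.581 in the replete sample, against 0.330 and 0.531 in BY4741 with CHX. MCM6 TE was 0.790 starved and 0.662 replete without CHX, against 0.387 and 0.501 with it. The median TE of all genes was also higher in the starved sample without CHX, by 0.25 on the log2 scale. Relative to it the TE change without CHX was -0.12 for MCM3 (counting interval -0.31 to 0.06) and 0.01 for MCM6, against -0.78 and -0.47 in BY4741 with CHX. In RPKM, the TE of each gene with and without CHX lay further apart in starved than in replete cells. Relative to all genes, the samples with and without CHX differed mostly in replete cells. There the log2 ratio of TE with over without CHX, relative to all genes, was 0.67 for MCM3 and 0.40 for MCM6. In starved cells it was 0.01 and -0.08. The fitted difference between the responses without CHX and with CHX was 0.54 for MCM3 (95% interval 0.06 to 1.01, edgeR adjusted p = 0.30) and 0.54 for MCM6 (0.14 to 0.94, adjusted p = 0.20), so neither passed over all genes.

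For a different response without CHX, edgeR called 0 of the 10 genes in mRNA, footprints and TE, beside 5.71%, 0.515% and 2.68% of 5044 genes. The counts were 2, 1 and 2 at an unadjusted p under 0.05, and DESeq2 called 0 in each. The condition without CHX has 1 pair, whose spread was taken to be that of the 4 strains, and the intervals were wide: for RNR1 mRNA the difference of 0.18 had a 95% interval of -0.32 to 0.68. For POL30 mRNA it was 0.40 (0.11 to 0.69, adjusted p = 0.11). Samples without CHX were also collected by filtration, and those with CHX by centrifugation, so the drug and the harvest cannot be told apart.

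The direct ratio of samples with CHX to samples without it had no replicates and was taken after subtraction of the median of all genes. Among starved BY4741 samples, 0 of the 10 genes lay past 1 on the log2 scale in mRNA, footprints or TE, beside 2.74%, 10.8% and 14.0% of 4826 genes. Among replete samples it was 0 of the 9 genes with enough reads, which leaves out RNR3, beside 4.68%, 7.66% and 15.5% of 4702 genes. The median ratio of the members was -0.12 in mRNA, -0.10 in footprints and -0.03 in TE in starved cells, and -0.05, 0.10 and 0.14 in replete cells.

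Of the 10 genes in starved cells, RNR2 was farthest from the bulk of genes in mRNA (-0.75) and TE, but not in footprints (0.16). Its mRNA was 206.3 RPKM with CHX and 295.9 RPKM without it, and its TE 1.45 and 1.51. Since the TE of the median gene was lower with CHX by 0.94 on the log2 scale, the ratio of RNR2 TE relative to all genes was 0.89, with a counting interval of 0.80 to 0.98. In replete cells that ratio was 0.60 (0.52 to 0.68). MCM3 stood at 0.67 (0.51 to 0.83) in TE in replete cells and at 0.01 (-0.17 to 0.18) in starved cells. RNR1 mRNA was relatively lower with CHX in starved cells (-0.55) and less so in replete cells (-0.05).

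**Figure D5:**
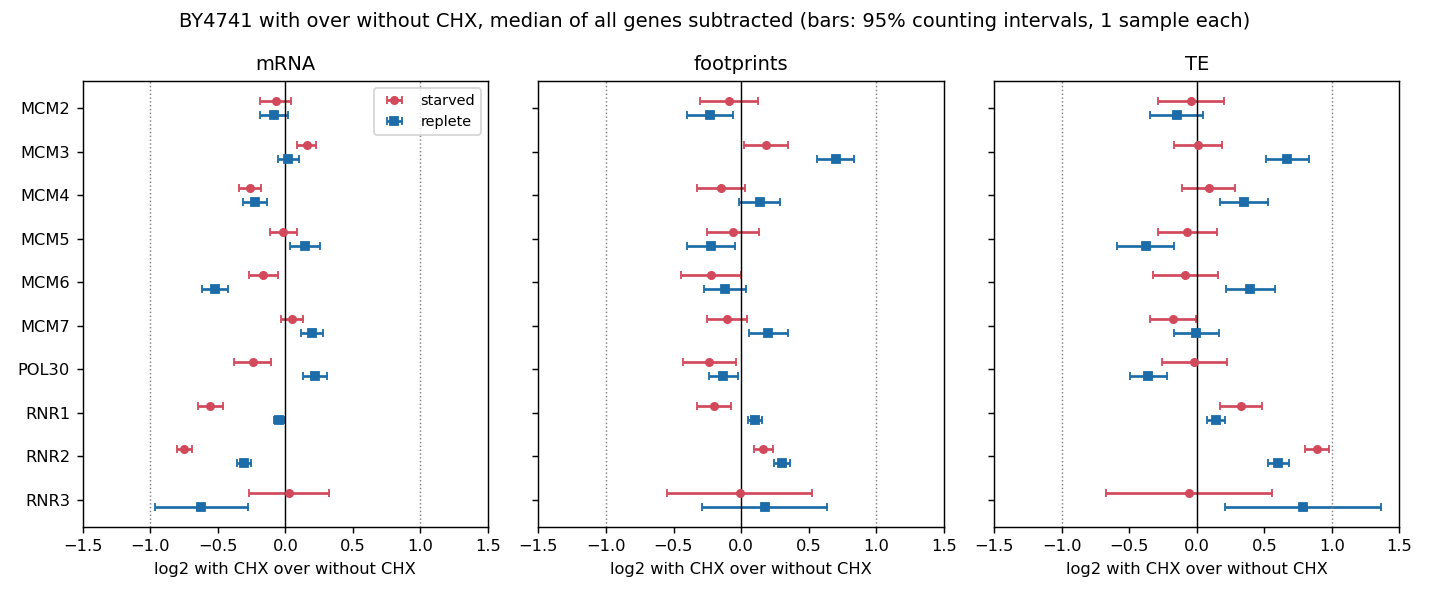
Log2 ratio of BY4741 samples with over without CHX in mRNA, footprints and TE, relative to the median of all genes, in starved (circles) and replete cells (squares); bars are 95% counting intervals of 1 sample against 1. No point lies past the dotted lines at -1 and 1, RNR2 TE in starved cells is at 0.89, and RNR3 in replete cells is drawn although its reads were under the minimum.

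The last comparison was with the strain labelled yJW1864, which was built to lack Dot6, Tod6 and Stb3, repressors of ribosome biogenesis genes, and in which STB3 reads were present. RNR1 and POL30 were far lower in its starved sample too. RNR1 mRNA was 34.1 RPKM in starved and 172.0 RPKM in replete yJW1864, and POL30 mRNA 61.9 and 163.9 RPKM, with log2 changes of -2.53 and -1.60 relative to all genes. MCM3 TE was 0.361 and 0.533, and MCM6 TE 0.504 and 0.721. For a response different from that of the 4 strains, edgeR called 0 of the 10 genes in mRNA, footprints and TE, beside 17.1%, 12.9% and 3.14% of 5060 genes, with 1, 0 and 0 at an unadjusted p under 0.05 and 0 by DESeq2 in each.

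The smallest adjusted p was that of MCM4 mRNA, at 54.7 RPKM in starved and 40.0 RPKM in replete yJW1864. Relative to all genes this was a log2 change of 0.26 (counting interval 0.18 to 0.33), against -0.12 to -0.03 in the 4 strains. Its response was higher than in the 4 strains by 0.34 on the log2 scale (95% interval 0.10 to 0.58, edgeR adjusted p = 0.058), and without BY4741 by 0.36 (adjusted p = 0.040). For RNR1 the difference in mRNA was -0.01 with an interval of -0.48 to 0.46, and for POL30 0.15 with an interval of -0.13 to 0.43. yJW1864 is 1 pair, so these intervals borrow the spread of the 4 strains, which also served in the comparisons above.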

How the data were processed

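Counts per coding sequence, not normalized, and RPKM, normalized to its length and the total of reads, were deposited for each library. The authors clipped and split reads with FASTX tools, removed rRNA and tRNA reads, aligned the rest (the labels name Bowtie 1.1.2, TopHat2 2.1.1 and sacCer3) and counted P-sites or read 5′ ends with plastid, with non-unique positions and the first 30 and last 5 codons masked. Lengths leave out 33 bases in 12 libraries of the reporter strains and 108 in the other 44, which both samples of a pair share. The hours, the phase and the dissolved oxygen in percent of each YMC sample come from a table deposited with the series.

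From the counts of 5927 genes (784 dubious ORFs were left out), edgeR 4.0.16 with TMM factors was fitted with strain as a block, since a starved and a replete sample are parts of 1 culture. Their deviations from the group means correlated across genes at 0.585 to 0.823 in mRNA and 0.477 to 0.764 in footprints. Genes needed mean counts of 128 (mRNA) and 1 (footprints), and p-values were adjusted by Benjamini-Hochberg. TE was tested in a joint model of both library types, as their difference in response to starvation, and yJW1864 and BY4741 without CHX each entered as 1 further pair. Single-pair log2 changes and TE come from the deposited RPKM, with the same minimums in both samples (in all 16 for the YMC) and the median of all genes subtracted. Intervals of single pairs and ranges cover counting error only. Alternatives were RLE factors, DESeq2 1.42.0, fits with no filter or block, each strain left out in turn, second values of the YMC, TMM scaling, no subtraction of the median and a minimum of 32 footprints.

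Named genes are the 10 members, at most the 3 called genes of largest change per list and comparison, and the 5 genes most like the members over the YMC. The members and lists were chosen with earlier results of these data known. Names come from the files and RefSeq, in which 6049 identifiers were found. Scripts were tested on simulated data.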

Additional observations from a re-analysis of the deposited data

Results flagged for a closer look

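Among 60 groups of 4 strains (10 genes, starved or replete, mRNA, footprints or TE), 7 had 1 sample far from the other 3, where chance gives about 1 in 20. BY4741 was that sample in 4 of them: MCM6 footprints in starved cells (10.2 RPKM), POL30 and RNR1 footprints in replete cells (145 and 187 RPKM), and RNR1 TE in starved cells (0.987), each lower than in the reporter strains. BY4741 is also the strain of the 4 whose counted lengths leave out more bases, and the part of this in these levels was not tested. The others were yJW1863, with the highest MCM3 TE in starved cells (0.399) and the lowest MCM7 mRNA in replete cells (58.4 RPKM), and yJW1862, with the lowest RNR3 footprints in replete cells (2.02 RPKM, from 70 footprints).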

How the results depend on the processing

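The number of the 10 genes called in starved against replete cells was 6 in mRNA under RLE factors, DESeq2, no filter and no block, and 6 to 7 with a strain left out. In footprints 8 genes were called, 6 of them without the replicate block and 5 to 8 when leaving strains out. In TE the count was 3, with 2 under RLE factors, 1 without the replicate block and 2 or 3 with a strain left out, where MCM4 was lost without BY4741, yJW1862 or yJW1863. For a different response without CHX the count was 0 under every alternative, and for yJW1864 it was 0 to 1 in mRNA with a strain left out and 0 otherwise. In TE 3 clamp loader genes were called by edgeR and 1 by DESeq2. The median YMC range in TE was 1.60-fold between second values and 1.66-fold after division by the median TE of each sample, against 1.97-fold. Without subtraction of the median, the median ratios with over without CHX were 0.11 in mRNA, -0.84 in footprints and -0.97 in TE in starved cells, and 0.25, -0.41 and -0.66 in replete cells, which moves them by the median of all genes. RNR3, with 44 to 243 footprints in the starvation samples, is limited by depth.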

Other observations

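Among the 5 genes whose YMC mRNA profile was closest to POL30 and RNR1, SEN34, a subunit of the tRNA splicing endonuclease, and YIF1, a membrane protein of vesicle transport, are not known for a role in replication. In the R64 annotation each starts next to a replication gene on the opposite strand, SEN34 346 bases from RFA1 on chromosome I and YIF1 371 bases from POL2 on chromosome XIV. YIF1 and POL2 mRNA correlated at r = 0.98 over the 16 samples, and SEN34 and RFA1 at r = 0.79. POL2 and RFA1 were both highest at time point 14, with ranges of 4.32-fold and 3.88-fold. These neighbours were looked up after the profiles were seen.

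The 6 helicase subunits, which act in equal numbers in 1 ring, were not equal in footprint density. The highest over the lowest of the 6 was 1.75-fold to 2.96-fold in footprints and 2.03-fold to 3.34-fold in mRNA over the 16 YMC samples, and 1.36-fold to 2.80-fold and 1.65-fold to 2.54-fold in the 12 starvation samples. The spread in footprints was smaller than that in mRNA in 19 of 28 samples, but not evenly by state. Among starved samples it was smaller only in yJW1861, and in starved yJW1864 it was 2.80-fold against 2.54-fold in mRNA. Among replete samples it was larger only in BY4741 with CHX. MCM3 had the highest mRNA of the 6 in 16 of 28 samples and MCM7 in 9.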
